A study of Mus musculus with 9 samples.

Results

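The loci described here are places inside genes where the glucocorticoid receptor (GR) was called in mouse granulosa cells 6 h after an ovulatory stimulus and not before it, and where the chromatin carried no called acetylation of lysine 27 of histone H3 (H3K27ac) before the stimulus. They were chosen by measured values, namely the presence or absence of called peaks. GR peaks of 4 libraries on chromosomes 1 to 19 and X were merged into loci wherever they overlapped by 1 bp or more. A locus was kept if it held a peak of both 6 h lists and of neither 0 h list, lay more than 1 kb from every end of a protein-coding gene, overlapped the span of such a gene, and overlapped no H3K27ac peak of the 0 h list. Of 18570 loci, 2805 were called only at 6 h (15.1% of all loci), and 932 of these met this rule (5.02% of all loci). They lay in 716 of 21631 protein-coding genes (3.31%), called host genes below. Since peak calls chose the loci, their absence from the 0 h lists, their place inside genes and their lack of H3K27ac are not findings.

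GR binding was measured by chromatin immunoprecipitation and sequencing (ChIP-seq, antibody sc-8992) in granulosa cells, the somatic cells around the oocyte, from wildtype CBA x C57BL/6 F1 mice that were 21 days old. All mice were primed with 5 IU of equine chorionic gonadotropin (eCG, labelled PMSG) to make follicles grow. After 44 h they were killed (0 h, 2 GR libraries) or given 5 IU of human chorionic gonadotropin (hCG) as a substitute for the luteinising hormone (LH) surge and killed 6 h after that (2 GR libraries). H3K27ac was measured at 0 h in 1 library (antibody from Active Motif). Cells were collected by puncturing ovaries, so cells other than granulosa cells can be present. No library came from mice at the later time without hCG, so hCG, its injection and the later time cannot be told apart. Whether the numbered libraries stem from different mice or pools is not in the labels, so spread between them may be technical.

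GR is a steroid receptor that moves to the nucleus when it binds corticosterone, the main glucocorticoid of mice, and acts at response elements in DNA made of paired hexamers, or through other DNA-bound factors. H3K27ac marks active promoters and enhancers, and most GR binding in well-studied cell types falls in chromatin that is already open. In the follicle the LH surge changes granulosa cells from oestrogen-producing to progesterone-producing cells, remodels the matrix around the oocyte and the basement membrane, and is followed by release of the oocyte.

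Sequence was at hand for the few loci that met the start of an annotated transcript inside the host gene. Of the 932 loci, 4 met such a window, which runs from 250 bases before a start to 50 bases after it, in the RefSeq table of assembly GRCm38.p6. The stretches inside 3 of these loci are shown because they are the base-level context the tables held for this class, and they include 1 of its 20 strongest loci. They are written 5′ to 3′ on the strand of the gene, with capitals for the hexamer that GR binds (AGAACA or its reverse complement TGTTCT) and for the AP-1 motif (TGANTCA), searched on both strands. The Rnf180 stretch is chr13:105292989-105293264 on the minus strand, the Slc7a11 stretch is chr3:50443564-50443863 on the minus strand, and the Cnr1 stretch is chr4:33924394-33924693 on the plus strand.
Rnf180: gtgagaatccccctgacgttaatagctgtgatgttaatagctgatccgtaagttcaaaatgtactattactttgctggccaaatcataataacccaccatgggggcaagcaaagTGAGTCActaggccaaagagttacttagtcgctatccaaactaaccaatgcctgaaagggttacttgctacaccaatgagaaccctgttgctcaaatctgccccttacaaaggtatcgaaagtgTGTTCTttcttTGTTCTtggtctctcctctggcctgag
Slc7a11: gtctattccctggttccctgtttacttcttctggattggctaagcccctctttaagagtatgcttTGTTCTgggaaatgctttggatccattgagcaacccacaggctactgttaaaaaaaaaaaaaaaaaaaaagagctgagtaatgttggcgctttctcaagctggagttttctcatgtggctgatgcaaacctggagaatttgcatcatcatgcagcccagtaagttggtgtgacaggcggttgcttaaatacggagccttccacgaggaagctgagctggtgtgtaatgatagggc
Cnr1: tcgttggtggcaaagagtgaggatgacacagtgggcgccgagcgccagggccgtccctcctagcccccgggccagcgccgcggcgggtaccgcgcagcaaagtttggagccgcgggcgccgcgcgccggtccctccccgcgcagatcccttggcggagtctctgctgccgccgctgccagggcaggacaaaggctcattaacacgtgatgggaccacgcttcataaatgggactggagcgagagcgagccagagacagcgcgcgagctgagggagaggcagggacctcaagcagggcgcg
The Rnf180 stretch held 2 such hexamers, starting at bases 239 and 250 of the 276 shown, and an AP-1 motif starting at base 115. The summits of both 6 h peaks lay just outside the stretch, 16 and 20 bp before its first base, at the end away from the hexamers. The Slc7a11 stretch held a hexamer starting at base 66, and both summits lay inside the 300 bases. The Cnr1 stretch held neither motif. None of the 3 held the full GR palindrome. Over all 32851 promoter windows of the table, 19.0% held the hexamer, 7.81% the AP-1 motif and 0.475% the palindrome, so a single hexamer is common and these matches describe the letters only.

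Rnf180, which encodes a membrane-bound ubiquitin ligase, had fold enrichments of 23.9 and 22.4 at this locus in the first and the second 6 h library, which placed it as the last of the 20 strongest. Fold enrichment is the authors' ratio of signal at a peak over the background estimated by their peak caller. The Slc7a11 locus shown, in the gene of the cystine-glutamate antiporter, had values of 4.69 and 9.04 and was 673rd in rank. Another locus of the same gene, chr3:50402349-50402949, reached 24.8 and 25.5 and was 8th. The Cnr1 locus, in the gene of a cannabinoid receptor, had values of 8.49 and 6.90.

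Across the 932 loci the authors' fold enrichment ran from 3.92 to 39.97 in the first 6 h library, with a median of 8.98 and quartiles of 7.21 and 11.99. In the second 6 h library it ran from 3.66 to 46.1, with a median of 8.43 and quartiles of 6.81 and 11.5. The class therefore had a short strong tail, since 267 loci (28.6%) reached a fold of 10 in both libraries and 29 reached 20 in both. All peaks of the 6 h lists had lower medians, 7.89 in the first and 6.89 in the second. Unlike those peaks, the loci had to be called in both lists. The weakest −log10 p-value was 9.39 in the first and 10.2 in the second library, and the medians were 25.9 and 26.99. The authors' 6 h lists end at −log10 p-values of 9.02 and 9.10, and 37 loci lay under 12 in either library while 0 lay under 12 in both. Few loci thus sat at the calling limit.

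Both libraries ranked the loci alike. The folds were within 1.5 times of each other for 854 loci (91.6%) and within 2 times for 925 (99.2%), and 541 (58.0%) were higher in the first library. Across loci, Pearson's r of log2 fold was 0.82 and Spearman's rank correlation of fold was 0.771 (n = 932). This is a description, since the loci share the same pair of libraries and were kept only if called in both. Summits lay within 50 bp of each other at 620 loci (66.5%), with a median gap of 31 bp and quartiles of 13 and 67 bp. At 73 loci (7.83%) the summits were more than 200 bp apart, and in 909 loci (97.5%) each library contributed 1 peak. Median peak widths were 316.5 and 307.5 bp.

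**Figure D1:**
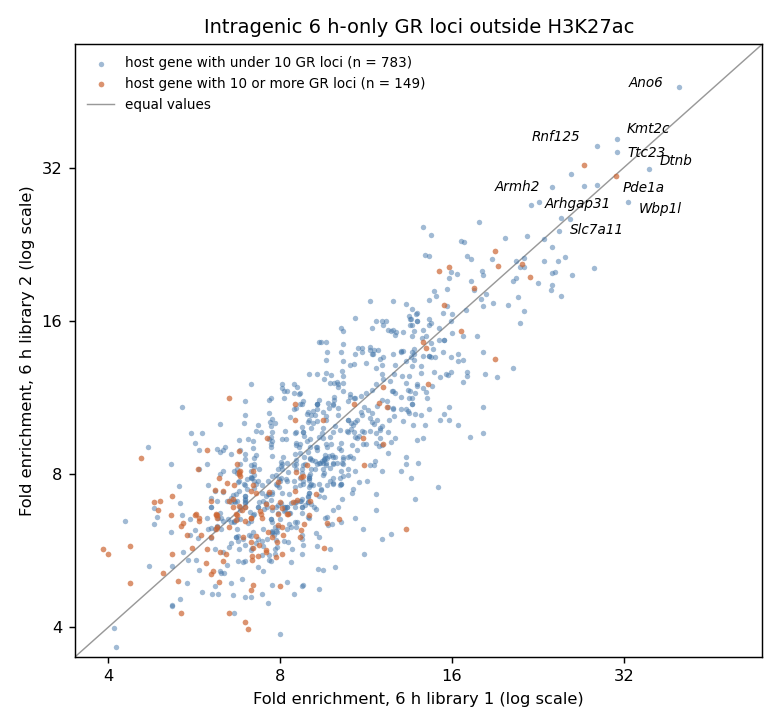
Fold enrichment of each of the 932 loci (points) in the first (x axis) and the second (y axis) 6 h library, on log scales, with the line of equal values. The strongest 10 are named by host gene, and the 149 loci in host genes with 10 or more GR loci (orange) lie mostly among the lower values.

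The 20 strongest loci, by mean rank of the −log10 p-value in both 6 h lists, lay in 19 host genes, and none had a fold under 19.2 in the first or under 19.8 in the second library. Their summits differed by at most 93 bp between libraries, 11 were higher in the second library, and 17 lay more than 1 kb from the nearest H3K27ac peak. The first was in Ano6, at chr15:95914754-95915444, with folds of 39.97 and 46.1. Ano6 encodes a calcium-activated lipid scramblase of the plasma membrane. The locus lay 26.9 kb from H3K27ac and 33.6 kb from the nearest 0 h GR peak. The next was in Wbp1l, at chr19:46601376-46601889, with folds of 32.5 and 27.4, only 1.12 kb from H3K27ac and 2.10 kb from a 0 h peak.

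Some of the other strongest loci are described here by what their host genes encode. Pde1a encodes a calcium- and calmodulin-dependent phosphodiesterase that degrades cyclic nucleotides, and it held 2 of the 20. The stronger, chr2:79945917-79946735, had folds of 31.0 and 30.8, and the other began 150 bp further on and had folds of 19.2 and 20.5. Another locus of the class on their other side had folds of 8.52 and 8.07, so the 3 loci of Pde1a spanned 2.80 kb of a gene of 362 kb. Arhgap31, which encodes an activator of the GTPase activity of Rac and Cdc42, had folds of 27.3 and 29.4. Dtnb, which encodes a dystrobrevin of the dystrophin complex, had folds of 35.4 and 31.9. Add3, which encodes an adducin that links spectrin and actin, had folds of 28.4 and 20.3. Sik3, a salt-inducible kinase gene, held 4 loci, with folds of 11.2 to 26.0 in the first and 5.56 to 19.8 in the second library.

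Kmt2c, which encodes an enhancer-bound methyltransferase of lysine 4 of histone H3, had folds of 31.2 and 36.4 at chr5:25296773-25297378, a place 73.1 kb from the nearest H3K27ac peak and 196 kb from the nearest 0 h GR peak. Zbtb16, a zinc finger repressor gene known as a glucocorticoid target in many tissues, held 3 loci with folds of 27.3 and 32.4, 19.1 and 21.96, and 15.2 and 20.1. All 3 were higher in the second library, and 4 further loci of the gene were called in all 4 lists, before as well as after hCG. Sctr, the gene of the secretin receptor, also held 3 loci, and the strongest had folds of 28.7 and 29.6. The 3 were the only GR loci of Sctr, and the gene span held no H3K27ac peak. Htra1, which encodes a secreted serine protease, had folds of 25.8 and 25.3. The remaining strong loci lay in Ttc23 (31.1 and 34.3), Armh2 (24.0 and 29.3), Rnf125, of a ubiquitin ligase (28.7 and 35.2), Xpnpep1, of a cytosolic aminopeptidase (24.2 and 19.996), Uxs1, of the enzyme that makes UDP-xylose (25.2 and 21.4), and Adnp2 (25.8 and 31.0). In Armh2 it was the only GR locus of the gene.

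The median locus lay 20.2 kb from the nearest protein-coding gene end, with quartiles of 8.46 and 52.4 kb and a highest value of 489 kb. Where the table gave transcript starts of the host gene, for 730 loci, the median distance to the nearest start was 31.1 kb, and 10 loci lay within 1 kb of one. The gene table gives no exons, so introns and exons were not told apart. The median distance to the nearest H3K27ac peak was 10.6 kb, with quartiles of 3.97 and 35.7 kb. In 95 loci (10.2%) that mark began within 1 kb, in 356 (38.2%) at 1 to 10 kb, in 408 (43.8%) at 10 to 100 kb and in 73 (7.83%) beyond 100 kb. Most loci were thus not at the edge of an acetylated region, although the rule itself removed a distance of 0. The nearest GR peak of either 0 h list lay at a median of 33.7 kb, with quartiles of 9.53 and 84.4 kb, and 29 loci (3.11%) had one within 1 kb.

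Fold enrichment was higher farther from both. Within 1 kb of H3K27ac the median folds were 8.53 and 7.70, and beyond 100 kb they were 9.73 and 9.65. Within 1 kb of a 0 h GR peak the medians were 6.70 and 6.39, and beyond 100 kb they were 9.53 and 9.45. The medians rose from class to class of distance in both libraries. Those of the 29 loci within 1 kb of a 0 h peak lay below the lower quartiles of all 932 loci, 7.21 and 6.81. Loci in genes with many GR loci lay nearer to H3K27ac and were weaker, as given further on, and the part of this in the difference was not tested.

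**Figure D2:**
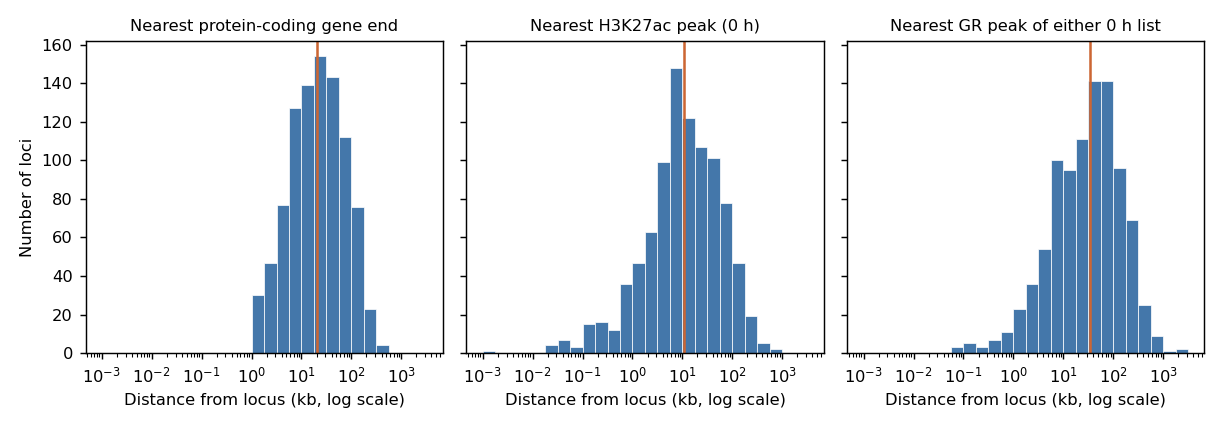
Number of loci (y axis) by distance in kb on a log scale (x axis) to the nearest protein-coding gene end, the nearest H3K27ac peak at 0 h and the nearest GR peak of either 0 h list. Orange lines are the medians, 20.2, 10.6 and 33.7 kb, and the gap below 1 kb in the left panel is set by the rule.

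The values just inside and outside the limits of the rule show how it cut the loci. At just over 1 kb from a gene end lay the loci of Msmo1 (1003 bp, folds 7.75 and 4.84), Mphosph8 (1005 bp, 5.98 and 6.23) and Sqstm1 (1057 bp, 6.64 and 4.26). Just inside 1 kb, and so left out, lay those of Spg20 (984 bp, 5.99 and 7.75), Dpep2 (974 bp, 4.59 and 4.68) and Mat2a (898 bp, 7.33 and 7.75). The loci nearest to H3K27ac without overlap were those of Wipi1 (1 bp, 8.96 and 8.85), Cers6 (19 bp, 13.6 and 16.1) and Ptpn3 (19 bp, 8.53 and 8.52). Those left out with the least overlap were in Ppard (9 bp, 5.17 and 7.28), Rnaseh2a (10 bp, 7.75 and 8.38) and Tmem170b (11 bp, 10.9 and 7.84). In the first library the folds on both sides of each limit overlapped. In the second they overlapped at the limit of 1 kb, while the 3 loci just outside H3K27ac were all above the 3 just inside it.

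The same class before hCG was small. Among intragenic loci more than 1 kb from gene ends and outside H3K27ac, 932 were called in both 6 h lists alone, 29 in both 0 h lists alone and 31 in all 4 lists. Single libraries added 663 loci called in the first 6 h list alone and 815 in the second alone, against 110 and 117 in single 0 h lists. Loci seen in a single 6 h list together outnumbered those seen in both. Counting also intragenic loci inside H3K27ac, the 932 were 62.9% of 1482 loci called only at 6 h. The 29 were 9.29% of 312 loci called only at 0 h, and the 31 were 4% of 775 loci of all 4 lists. Of intergenic loci called only at 6 h, 64.9% lay outside H3K27ac, so the high share was not particular to loci inside genes. H3K27ac was measured at 0 h, the time of the 0 h calls and not of the 6 h calls. The 6 h lists held 14732 and 10587 peaks against 10115 and 9724 at 0 h. No source used here gives the read depth of the lists, and an absent call means only a signal under the calling limit.

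The 932 loci were set beside 3 classes, namely 691 intergenic loci called only at 6 h outside H3K27ac, 550 intragenic loci called only at 6 h inside H3K27ac, and 744 intragenic loci of all 4 lists inside H3K27ac. Against the intergenic loci the median fold of the 932 was lower in both libraries, 8.98 against 9.73 and 8.43 against 9.49, a mean difference of −0.906 ± 0.223 (SD, n = 2 libraries). The difference kept its sign but was −0.416 without host genes of 10 or more GR loci, −0.391 with the stronger 50% of each list and −1.48 without the first 6 h library. Against the acetylated loci of the same time it was slightly higher, 8.98 against 8.76 and 8.43 against 7.90, a mean difference of 0.378 ± 0.211 (SD, n = 2 libraries). That sign turned to −0.248 when the second 6 h library stood alone for its time, and the difference was 0.801 without the crowded host genes, 0.873 with equal numbers of peaks per list and 1.26 with the stronger 50% of each list. The median −log10 p-value went the other way, at 25.9 against 28.5 in the first and 26.99 against 27.1 in the second library. The 2 measures of strength thus disagreed for this pair of classes. Against the loci of all 4 lists the libraries disagreed, with 8.98 against 9.67 in the first and 8.43 against 7.08 in the second. Peaks outside H3K27ac were narrower than those of the acetylated 6 h-only loci by 59.0 bp in the first and 19.5 bp in the second library, in medians.

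**Figure D3:**
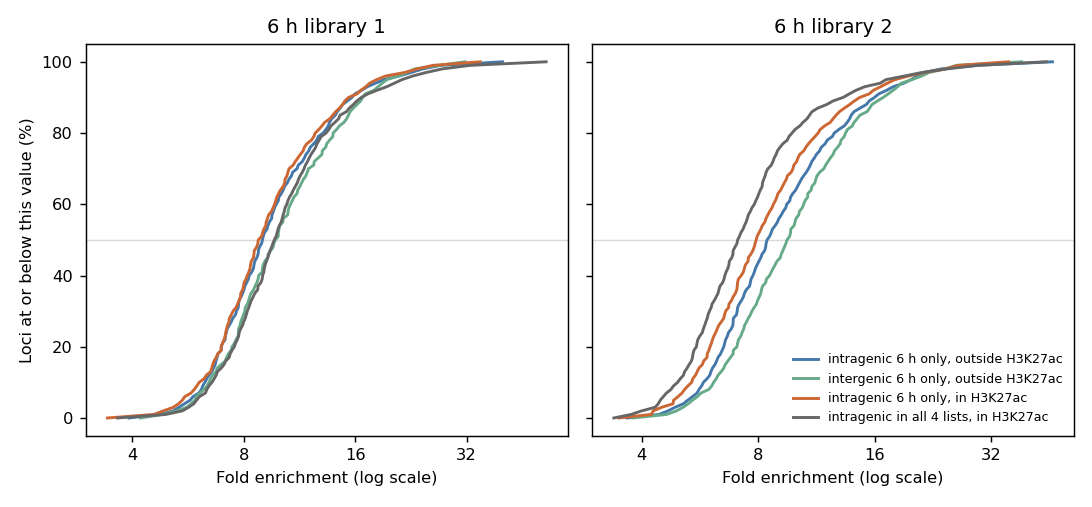
Share of loci at or below each fold enrichment (y axis, percent) against fold enrichment (x axis, log scale) in the first and the second 6 h library, for the 932 loci (blue) and 3 like classes. In both panels the blue line lies to the left of the intergenic loci (green), with medians of 8.98 against 9.73 and 8.43 against 9.49, while the place of the loci of all 4 lists (grey) changes between libraries.

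Shares were compared as differences in percentage points with 95% Newcombe intervals, and single shares have 95% Wilson intervals. These cover counting error only, and loci of 1 gene are not independent. A 0 h GR peak lay within 10 kb of 26.0% of the 932 loci (23.3 to 28.9), against 11.4% of the intergenic loci, a difference of 14.5 points (10.8 to 18.2). Another GR locus of any kind lay within 1 kb of 18.2% of them and 7.24% of the intergenic loci, a difference of 11.0 points (7.80 to 14.1). With 1 locus per host gene, the 18.2% fell to 12.7% (90 of 711 loci). The intergenic loci were not thinned in a like way, so the part of genes with several loci in this difference was not tested. An H3K27ac peak lay within 10 kb of 48.4% and 32.4%, a difference of 16.0 points (11.2 to 20.6). The loci inside genes were thus more crowded than the like loci between genes. Summits of both libraries lay within 50 bp at 66.5% of them and 78.0% of the intergenic loci, a difference of −11.5 points (−15.7 to −7.09).

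Against the acetylated intragenic loci of 6 h the order was the other way. A 0 h GR peak lay within 10 kb of 34.5% of those, a difference of −8.58 points (−13.5 to −3.75), which was −5.51 points (−11.02 to −0.111) with 1 locus per host gene. Another GR locus lay within 1 kb of 24.0% of those, a difference of −5.76 points (−10.2 to −1.49). A host gene with no other GR locus held 12.6% of the 932 loci and 8.18% of the acetylated ones, a difference of 4.37 points (1.11 to 7.41). Ends of long noncoding RNA genes were rare beside the 932, at 12 loci (1.29%) within 1 kb, against 4.55% of the acetylated loci, a difference of −3.26 points (−5.41 to −1.53), and 6.95% of the intergenic ones, a difference of −5.66 points (−7.87 to −3.74).

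Host genes were long, with a median of 91.8 kb against 17.3 kb for all protein-coding genes. The share of genes with a locus rose from 0.194% of genes under 10 kb through 1.67%, 5.21% and 12.7% to 16.7% of genes of 300 kb or more. Per length the pattern was flat in the middle, with 1.10, 1.13 and 1.11 loci per Mb between 10 and 300 kb. It was lower at the ends, with 0.495 per Mb in the shortest and 0.451 per Mb in the longest genes. The rule leaves out loci within 1 kb of a gene end, which takes up much of a short gene. Both low values of the genes under 10 kb are therefore in part set by the rule. Although the loci themselves lacked H3K27ac, their genes often carried it. An H3K27ac peak lay within 1 kb of an end of 492 host genes, 68.7% (65.2 to 72.0), while 48.5% of all protein-coding genes and 47.8% of genes without a locus had one. Hosts stood above other genes in each of the 5 length classes, at 80.0% against 35.2%, 77.6% against 55.8%, 73.5% against 58.2%, 62.4% against 52.2%, and 59.1% against 26.7%, from short to long. The intervals of both groups did not overlap in any class. This was not particular to loci outside H3K27ac, since 73.9% of the host genes of acetylated intragenic 6 h-only loci had such an end. Counted by locus, 67.9% of the 932 and 75.8% of the acetylated loci lay in such genes, a difference of −7.90 points (−12.5 to −3.15), which was −4.82 points (−10.1 to 0.650) with 1 locus per host gene. Among the loci of all 4 lists 59.1% did, a difference of 8.78 points (4.14 to 13.4).

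**Figure D4:**
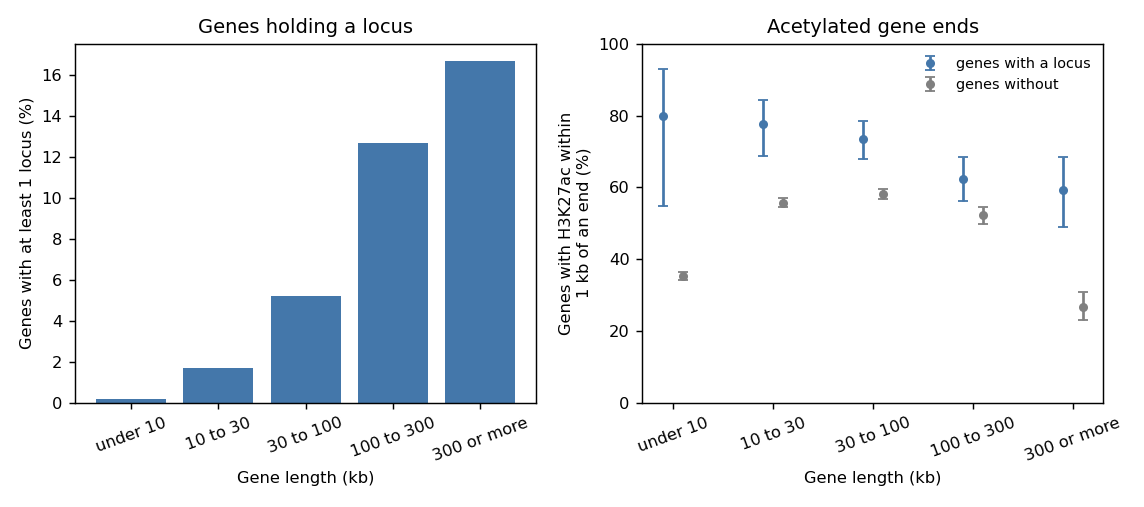
Left, share of protein-coding genes that hold at least 1 of the loci (y axis, percent) by gene length in kb (x axis), rising from 0.194% to 16.7%. The lowest value is in part set by the rule, which leaves out loci within 1 kb of a gene end. Right, share of genes with H3K27ac within 1 kb of an end (y axis, percent) for genes with and without a locus, with 95% Wilson intervals as bars, where genes with a locus are higher in all 5 length classes.

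Inside the host genes other GR binding was usual. At 0 h a GR peak lay somewhere in the span of 485 host genes, 67.7% against 38.5% of genes without a locus, and a GR locus of all 4 lists lay at an end of 262, 36.6% against 20.2%. H3K27ac lay in the span of 629, 87.8% against 53.4%. These 3 shares are not adjusted for the greater length of host genes. At the other extreme, 121 host genes (16.9%) had no second GR locus of any kind, 87 (12.2%) had no H3K27ac in their span and 231 (32.3%) had no 0 h GR peak. One locus per gene was the rule, in 571 host genes (79.7%), while 112 (15.6%) held 2 and 33 (4.61%) held 3 or more.

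The strength of the loci differed with the number of GR loci in the host gene, but did not fall at every step. Loci that were alone in their gene (117 loci) had median folds of 9.23 and 8.65, those in genes with 2 to 4 GR loci (483 loci) 9.62 and 9.28, those in genes with 5 to 9 (183 loci) 8.76 and 8.46, and those in genes with 10 or more (149 loci) 7.15 and 6.68. The median gap between summits was 23, 26, 37 and 90 bp in the same order. Loci of crowded genes were therefore weaker in median fold in both libraries, and their summits differed more between the libraries. Strong loci were not absent there, since 3 of the 20 strongest lay in genes with 10 or more GR loci. Lone loci were also the farthest from H3K27ac, at a median of 35.4 kb, against 10.9, 9.43 and 6.95 kb in the other groups.

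Gramd1b and Vcan, the host genes with the most loci, show the crowded kind. Gramd1b encodes a protein of the endoplasmic reticulum that takes up cholesterol from the plasma membrane. It held 26 of the 932 loci among 92 GR loci in 240 kb at chr9:40293233-40533614. Their folds were 4.81 to 9.67 in the first and 4.26 to 7.84 in the second library, with medians of 7.07 and 6.48, so none was among the strong loci. The 0 h libraries called 8 and 6 of the 92 loci and the 6 h libraries 81 and 50, and 41 were called in the first 6 h library alone and 10 in the second alone. The median step between neighbouring loci of the class was 2.24 kb, and 20 of the 26 had another GR locus within 1 kb.

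Vcan encodes versican, a large proteoglycan of the matrix that granulosa cells lay down around ovulation. It held 9 of the 932 loci among 45 GR loci in 87.7 kb at chr13:89655309-89743027. Their folds were 5.41 to 13.3 in the first and 5.40 to 7.92 in the second library. The 0 h libraries called 3 and 1 of the 45 loci and the 6 h libraries 22 and 34, so here the second library called more, with 23 on its own against 10 for the first. More calls at 6 h than at 0 h follow in part from the choice of genes with many loci of the class, while the 6 h library that called more differed between the genes.

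Of the 10 host genes with most loci, Pakap, Scp2 and Ncoa7 also held 10 or more GR loci (14, 12 and 13). Per length of gene, the others of the 10 were less crowded than Gramd1b and Vcan, apart from Bzw1. That gene, of a regulator of translation initiation, held 5 loci among 10 GR loci in only 14.5 kb, with folds of 6.18 to 8.68 and 5.53 to 7.35. In 1 of them the summits were 967 bp apart, the widest gap of all. Pakap, which encodes an anchoring protein for protein kinase A, held 5 loci spread over 167 kb with folds of 5.70 to 21.3 and 6.06 to 20.7. Cacna2d1, the gene of an auxiliary subunit of voltage-gated calcium channels, held 5 of its 6 GR loci in the class, with folds of 7.84 to 16.9 and 5.71 to 16.8, each of them at least 59.6 kb from H3K27ac. Iqck also held 5, with folds of 5.16 to 10.2 and 5.71 to 15.5. Smad3, which carries signals of activin and TGF-beta, held 4 with folds of 6.45 to 24.0 and 7.06 to 18.8. Scp2, a sterol carrier gene, held 4 with folds of 6.06 to 14.2 and 4.92 to 14.6, and Ncoa7, of a protein that binds nuclear receptors, held 4 with folds of 5.61 to 11.2 and 5.74 to 11.0.

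**Figure D5:**
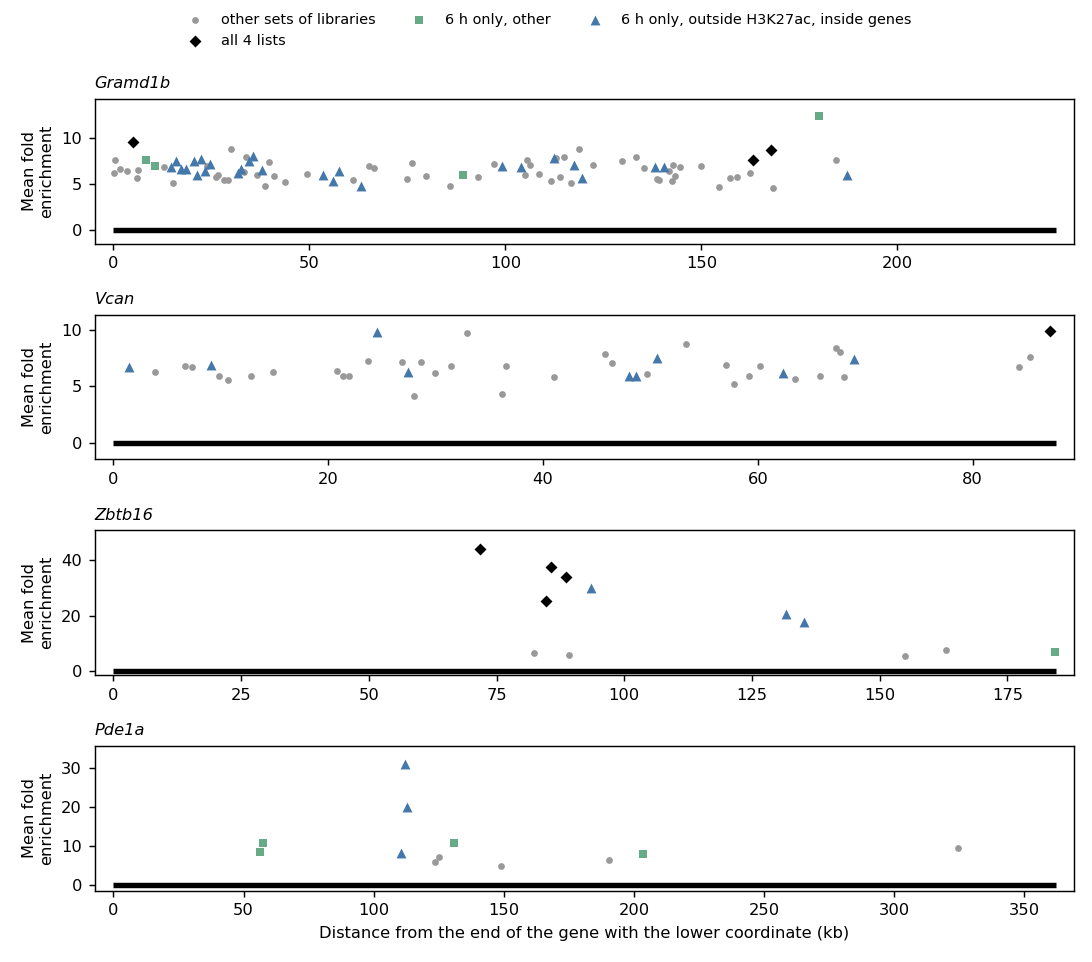
GR loci along Gramd1b, Vcan, Zbtb16 and Pde1a, by distance in kb from the gene end with the lower coordinate (x axis) and mean of the fold enrichments over the libraries that called each locus (y axis), with the gene as a black bar. Blue triangles are the loci of the class, 26 in Gramd1b, 9 in Vcan and 3 each in Zbtb16 and Pde1a, where folds in the first 6 h library reached 9.67, 13.3, 27.3 and 31.0.

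The loci were not spread evenly over chromosomes. Per Mb of gene span there were 0.905 over all chromosomes, 1.67 on chromosome 9, where Gramd1b lies, 1.43 on chromosome 19 and 1.37 on chromosome 17. Without Gramd1b the value of chromosome 9 was 1.21. The X chromosome had 12 loci and the lowest value, 0.263 per Mb, followed by chromosomes 14 and 18 with 0.552 and 0.576.

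Lists of genes were read as counts of host genes beside the 3.31% of all protein-coding genes that were hosts and the 0.889 loci per Mb of gene span counted gene by gene. Of 25 genes of the ovulatory response to LH, 7 (28.0%) held a total of 17 loci, 15.3 per Mb, of which 9 were in Vcan. Adam8, a membrane metalloprotease gene, had its only GR locus here, at chr7:139988349-139988696, with folds of 20.5 and 12.9. Tnfaip6, whose product cross-links hyaluronan in the matrix of the cumulus, held 2 loci with folds of 18.2 and 13.9, and 5.38 and 6.66. Runx1, a transcription factor gene induced by LH, had 1 with folds of 6.95 and 6.48. Vcan, Tnfaip6 and Adam8 act outside the cell or at its surface, and the other hosts of the list were Sult1e1, Runx2 and Fosl2.

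The list of matrix and vessel genes gave 6 hosts of 20 with 9 loci, 7.33 per Mb. Adamts9, a secreted protease that cleaves versican, had a locus with folds of 21.6 and 23.5 at chr6:92787484-92787884 and a weaker one with 8.98 and 7.80. Col4a1 and Col4a2, neighbouring genes for collagen IV of basement membranes, held 2 loci each. The strongest, in Col4a2, had folds of 15.03 and 17.9, and all 4 lay more than 100 kb from H3K27ac. Lamc1, of a laminin chain of the same membranes, had folds of 16.0 and 19.9. Among whole families the ADAMTS proteases had 4 hosts of 19, the collagens 5 of 44 and the integrins 4 of 31, with Itgb6 at 22.7 and 19.0 the strongest integrin locus. In the same order, the median gene lengths of these families were 114, 114 and 55.9 kb, with 2.14, 1.29 and 2.13 loci per Mb. Of all genes of 100 to 300 kb 12.7% were hosts, beside 21.1% of the ADAMTS and 11.4% of the collagen genes.

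For luteinisation and steroid synthesis 3 of 20 genes were hosts, with 4 loci or 4.77 per Mb, each of them under the median fold of the class in both libraries. Star, whose product brings cholesterol into mitochondria, had a single locus with folds of 6.35 and 5.62, Fdx1, of the electron donor of the side-chain cleavage enzyme, had 2 with at most 6.70 and 6.68, and Por, of the electron donor of microsomal P450 enzymes, had 1 with 8.47 and 7.75. For the preovulatory FSH response 2 of 22 were hosts, with 1.71 loci per Mb. Igf1r, the receptor of insulin-like growth factor, had loci with folds of 15.5 and 17.2, and 10.8 and 11.0, while Inhba, of an activin subunit, had 1 with 5.36 and 6.33. The glucocorticoid response list had 2 hosts of 24 and 6.20 loci per Mb, in Zbtb16 as above and Fkbp5, a cochaperone of GR, with folds of 9.20 and 8.19. The list of glucocorticoid handling had 2 of 12, H6pd and Ncoa1, with 1.43 loci per Mb.

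Cyclic AMP signalling had 4 hosts of 34 with 7 loci, or 1.01 per Mb, close to the value of all genes, in Pde1a, Adcy7, Pde4d and Prkar2b. TGF-beta and BMP signalling had 4 of 25 with 3.26 loci per Mb, in Smad3, Ltbp1, Bmpr1a and Bmpr2. Insulin and IGF signalling had 3 of 24 with 1.80 per Mb, in Igf1r, Pik3r1 and Tsc2. Chromatin modifiers had 7 hosts of 27, led by Kmt2c and followed by Smarca2, Arid1b and Hdac4 with folds of at most 12.6. Actin and focal adhesion had 6 of 25, among them Actn4, Lpp, Fermt2 and Palld. The last 2 lists hold long genes, with median lengths of 78.0 and 118 kb, and per Mb they came to 2.25 and 1.52 loci.

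The remaining lists had at most 2 hosts each. Inflammation and prostaglandins had 2 of 20 (Slco2a1 and Il1r1), or 3.83 loci per Mb, and the circadian clock 2 of 17 (Rora and Nfil3), or 2.07 per Mb. The cell cycle had 1 of 20, Cdk6, with folds of 14.3 and 21.6, or 2.25 per Mb. Of the 20 AP-1 and early transcription factor genes 1 was a host (Fosl2), or 5.19 per Mb, and of the 15 housekeeping genes 1 was (Ywhaz), or 5.40 per Mb. A single locus in a list of short genes gives such values, so they are counts of 1 or a few loci and no more. Lipid droplets and fatty acid handling had 0 of 25. Among families, DOCK exchange factors had 3 hosts of 11 (27.3%), protein kinase C 2 of 9 (22.2%), phosphodiesterases 3 of 24 (12.5%), receptor-type tyrosine phosphatases 4 of 20, potassium channels 3 of 92, TBC1D proteins 2 of 30, ABC transporters 2 of 50 and anoctamins 1 of 10. Per Mb these were 1.27 loci for DOCK exchange factors, 1.68 for protein kinase C, 0.933 for phosphodiesterases and 0.635 for receptor-type phosphatases. Semaphorins and plexins (29 genes), oxysterol-binding proteins (10) and olfactory receptors (1110 genes, 0.36% with an acetylated end) had 0. The olfactory receptor genes have a median length of 0.95 kb, and the rule leaves out loci within 1 kb of a gene end. Their 0 was therefore largely set by the rule. The 15 listed A-kinase anchoring proteins also had 0, but that list does not include Pakap, which held 5 loci.

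Marker genes gave a check on the cells. H3K27ac lay at an end of 6 of 7 granulosa markers, among them Fshr, Foxl2 and Amh, and not of Cyp19a1. It lay at 2 of 6 theca markers (Nr2f2 and Cyp17a1), 1 of 5 oocyte markers (Gdf9), 1 of 4 leukocyte markers (Cd68) and 1 of 4 endothelial markers (Cdh5). Of the 7 granulosa markers 1 (Inhba) was a host. In the same short lists, 1 of 6 theca markers and 2 of 4 endothelial markers were hosts. None of the 5 oocyte or 4 leukocyte markers was. In the longer lists the loci met 1 of 12 theca genes (Enpep, 8.33%) and 2 of 13 endothelial genes (Cdh5 and Pecam1, 15.4%). They met 0 of 14 oocyte genes and 0 of 14 leukocyte genes, while 3.31% of all protein-coding genes were hosts. The folds were 6.75 and 5.90 in Enpep, 7.73 and 9.92 in Cdh5 and 5.76 and 8.18 in Pecam1. Those of Enpep and Pecam1 lay below the medians of the class in both libraries. Those of Cdh5 lay below in the first and above in the second. The part of other cell types in the lists was not tested.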

How the data were processed

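GR and H3K27ac ChIP-seq peak lists of wildtype granulosa cells were used, 1 list per library. Per the submitters' processing notes, the authors aligned reads with Bowtie2 2.4.5 to mm10 and called peaks with MACS2 (version, settings and control not given in the sources used here). Each peak of the deposited GR lists comes with a score, a fold enrichment (a ratio over the estimated background), −log10 p- and q-values and a summit position, all the authors' own. The deposited H3K27ac list gives positions only, as other values without a scale. Read depth is unknown, so list length and strength can differ with depth, and fold values describe or rank peaks within 1 list.

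Peaks on chromosomes 1 to 19 and X were merged at 1 bp of overlap, and distances count touching features as 1 bp. Gene spans came from the RefSeq table of GRCm38.p6, the assembly behind mm10, without strand or exons; strands and starts came from the RefSeq promoter table, for 569 of 716 host genes. The planned motif search in all loci was not made, since no genome was used here. The loci and the 22 gene lists (456 entries) and 17 families were chosen with earlier results of these data known, so no count in them is independent support and no test was run on them. Named loci were the 20 with the best mean rank by −log10 p-value, the 10 host genes with most loci, up to 4 hosts per list, and 3 loci on each side of each limit; the further examples Sctr, Zbtb16, Slc7a11 and Cnr1 follow from those rules or from the promoter windows, and Sult1e1, Runx2, Fosl2 and Itgb6 complete counts. With 2 libraries per time, values are given per library and as mean ± SD. Intervals are Wilson and Newcombe at 95%. Alternatives covered the peaks kept, merging, overlap, distances and each library left out. Merging and distances were tested on simulated intervals. Python 3.11.15, numpy 2.4.6, pandas 2.3.3, scipy 1.17.1 and matplotlib 3.10.9 were used. A few list results are not reported here. The other 4 of the 9 samples were not analysed here.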

Additional observations from a re-analysis of the deposited data

How the results depend on the processing

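Of 73 alternative values for 6 results, 55 kept their direction and stayed within the spread or within 1.5 times the count, 17 moved and 1 turned its sign. With the stronger 50% of each GR list, 454 loci in 405 host genes remained by count, the median fold (mean of both 6 h libraries, 8.71 as reported) was 11.9, and the differences from acetylated intragenic and from intergenic loci were 1.26 and −0.391. With the 9724 strongest peaks of each list they were 10.1, 0.873 and −0.501. Without host genes of 10 or more GR loci, an alternative chosen after seeing the data, they were 9.20, 0.801 and −0.416, with 783 loci. Leaving out each GR library in turn gave 956 to 1791 loci, 726 to 1066 host genes, a median fold of 7.07 to 8.69, an acetylated end in 68.6% to 73.1% of host genes, a difference from intergenic loci of −1.48 to −0.854, and a difference from acetylated loci of −0.248 to 0.488, where the negative value came without the first 6 h library. The highest counts came without a 6 h library (1791 without the first, 1630 without the second), since 1 call then sufficed. The GR palindrome shares planned for other windows, summits and libraries were not run. No paired analysis was possible because the results come from peak calls without a test, and equal replicate numbers do not tie the libraries to the same mice. H3K27ac rests on 1 library at 0 h, with none at 6 h used here. List lengths limit what an absent call shows.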
